A study of Mus musculus with 22 samples.

Results

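Neurogenic apical radial glia (aRG-N) and basal radial glia (bRG) of the mouse neocortex were compared for 2 histone marks, H3K4me3 and H3K27me3. For each mark, the peak list of one cell type was set against the list of the other on the 19 autosomes, and a peak was called shared when at least 1 bp of it overlapped a peak of the other list. The 4 lists held 38426 autosomal peaks, of 110069 peaks on all chromosomes in the 10 lists of the series. They comprised 14278 H3K4me3 peaks in aRG-N, 14596 in bRG, 6165 H3K27me3 peaks in aRG-N and 3387 in bRG.

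Radial glia are the progenitors of the developing cortex. Apical radial glia divide at the ventricle, and the neurogenic ones among them give rise to neurons or to basal progenitors, while basal radial glia have left the ventricle and divide away from it. H3K4me3 sits at the start sites of active and poised genes. H3K27me3 is set by Polycomb repressive complexes, often over long domains at developmental genes that are switched off, and places with both marks are known as bivalent.

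Both cell types came from C57BL/6JOlaHsd mice at E14.5, E standing for embryonic day, with no genotype or treatment given. Chromatin was immunoprecipitated with an anti-H3K4me3 or an anti-H3K27me3 antibody, in 2 samples per cell type and mark. The labels call the pair of aRG-N H3K27me3 samples technical replicates. How the cells were purified is not given in the sources used here. Among the 22 samples of the series were also neuroepithelial cells (NEC, E9.5), proliferative apical radial glia (aRG-P) and neurons (N), the last of these and aRG-P at E14.5, each with 2 samples per mark, and 2 Input samples.

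The authors called each list once, on the combined samples of a group. Replicate values therefore do not exist for any count below, and cell types are compared without a test. Exact Clopper-Pearson 95% intervals are given for shares and cover counting error only. The read depth behind the lists is unknown. Peak strength is the authors' value, a fold enrichment for H3K4me3 and a score for H3K27me3 whose exact meaning could not be settled, and it is used only within a list. Positions are 1-based in mouse build mm9. No gene names are given, since an mm9 annotation was not used here, and for the same reason the cell type labels were not checked against marker genes.

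H3K4me3 was shared at most sites, and where it was not, the peak was nearly always weak and narrow. Of the aRG-N H3K4me3 peaks, 1400 had no bRG peak (9.81%, interval 9.32 to 10.3%). Of the bRG peaks, 373 had no aRG-N peak (2.56%, interval 2.31 to 2.82%). With lists of nearly equal length, such counts differ mainly where a peak meets several peaks of the other list. Here 1470 aRG-N peaks met at least 2 bRG peaks, and 221 bRG peaks met at least 2 aRG-N peaks. The gap between the counts is thus not itself a count of sites. When peaks that meet were joined into regions, as described below, 944 had H3K4me3 in aRG-N only and 245 in bRG only. These had no H3K27me3 in either cell type. Another bRG peak lay within 5000 bp of 747 of the 1400, leaving 653 with none that near. In the other direction 278 of the 373 had an aRG-N peak within 5000 bp and 95 did not. The headers of the files record a window of 2000 bp around transcripts for the aRG-N list and no such window for bRG, and the part of this in the counts was not tested.

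In aRG-N the median fold enrichment was 4.76 for unshared and 13.0 for shared H3K4me3 peaks. In bRG the medians were 4.42 and 8.82. The median width was 312 bp for unshared and 998 bp for shared aRG-N peaks, and 275 bp against 781 bp in bRG. In the weakest quintile of the aRG-N list (fold enrichment 1.80 to 6.66), 44.6% of peaks were absent in bRG. That share was 4.27% in the next quintile and 0.105% (3 of 2856 peaks) in the middle one. The bRG list showed the same order, with 11.6% of its weakest quintile absent in aRG-N and 1.06% of the next. Measured in base pairs, 81.8% of the 15.2 Mb under aRG-N H3K4me3 peaks lay under bRG peaks, and 95.4% of the 13.0 Mb under bRG peaks lay under aRG-N peaks.

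In the lists as deposited, H3K27me3 differed far more than H3K4me3, and nearly all of that difference went one way. Of the aRG-N H3K27me3 peaks, 3393 had no bRG peak (55.0%, interval 53.8 to 56.3%), and 315 bRG peaks had none in aRG-N (9.30%, interval 8.34 to 10.3%). The aRG-N list covered 24.6 Mb and the bRG list 12.4 Mb. Of the aRG-N length 47.8% was inside bRG peaks, and of the bRG length 94.4% was inside aRG-N peaks, so the bRG domains lay almost wholly within those of aRG-N. The size of this gap depended on list length. With both lists cut to 3387 peaks, 914 aRG-N and 615 bRG peaks were unshared, and counts from lists of equal length differ only where a peak meets several peaks.

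The shorter an aRG-N H3K27me3 peak, the more often it was missing in bRG. A short peak also has less length over which to meet another. Among aRG-N peaks under 1000 bp, 92.0% (1411 of 1534) had no bRG peak. The share was 78.3% from 1000 to 2000 bp, 38.2% from 2000 to 5000 bp and 14.2% from 5000 to 10000 bp. Of the 175 aRG-N domains of at least 20 kb, 6 (3.43%, interval 1.27 to 7.31%) had no bRG peak. All 236 bRG domains of at least 10 kb overlapped an aRG-N peak, which allows an unshared share of up to 2.41% for the 151 from 10 to 20 kb and 4.25% for the 85 longer ones. By score, 95.1% of the weakest quintile of aRG-N peaks and 2.51% of the strongest quintile were absent in bRG.

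**Figure D1:**
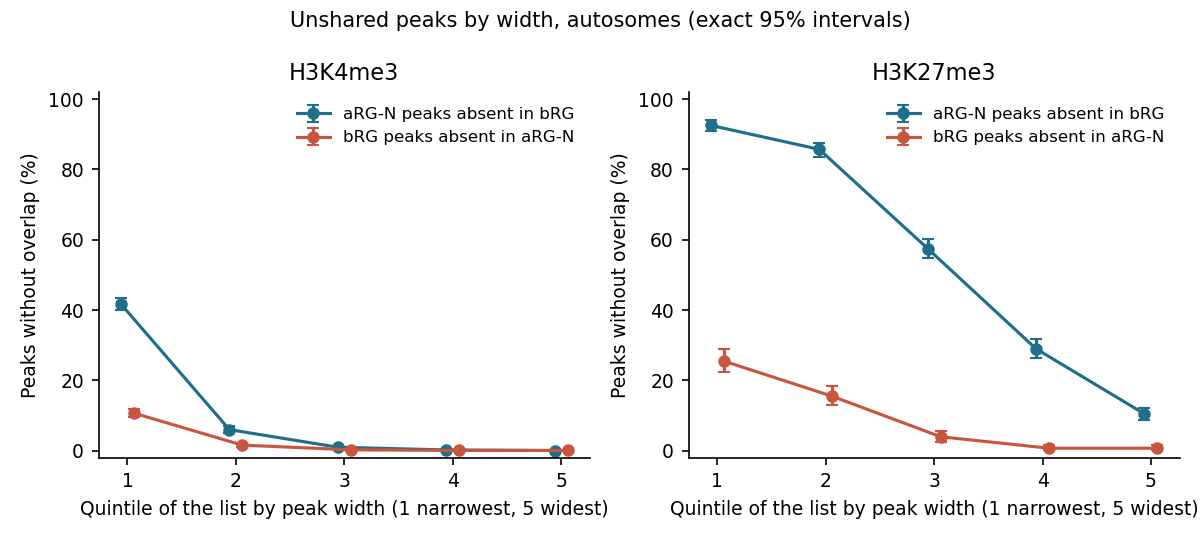
Share of peaks without an overlapping peak in the other list (y axis, percent) by quintiles of each list in order of width (x axis), for H3K4me3 (left) and H3K27me3 (right); points are shares, bars exact 95% intervals, blue for aRG-N and red for bRG peaks. In H3K27me3 the aRG-N share went from 92.5% in the narrowest quintile to 10.5% in the widest, and the bRG share from 25.5% to 0.737%.

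Few peaks lay at the edge of the overlap rule. For H3K4me3, 44 aRG-N peaks were shared by an overlap of at most 100 bp and 53 were unshared with a bRG peak at most 100 bp away. For bRG peaks these counts were 57 and 59. For H3K27me3 they were 14 and 11 in aRG-N and 18 and 15 in bRG. By chromosome, the unshared H3K4me3 share of aRG-N ranged from 6.84% on chromosome 16 to 12.2% on chromosome 13, and chromosomes 16 and 13 were also the extremes of the bRG share (0.835% and 3.41%). The unshared aRG-N H3K27me3 share ranged from 50.7% on chromosome 19 to 58.4% on chromosome 1, and that of bRG from 3.75% on chromosome 18 to 15.7% on chromosome 14.

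The deposited lists hold only a part of the peaks that were called. Peak numbers ran in order along each chromosome with gaps, and the missing numbers amounted to 8.63% of bRG and 10.9% of aRG-N H3K4me3 calls and to 26.5% of bRG and 36.6% of aRG-N H3K27me3 calls. Where the listed peaks on either side of a site have consecutive numbers, no unlisted call can lie between them. This held at 1221 of the 1400 aRG-N H3K4me3 peaks (87.2%) and 308 of the 373 in bRG (82.6%). It held at 2351 of the 3393 aRG-N H3K27me3 peaks (69.3%) and at 185 of the 315 in bRG (58.7%). At the others a call of the second cell type may have existed near the site without being listed.

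Where both lists had a peak, the bRG peak was usually the narrower. Of 11008 H3K4me3 pairs in which each peak met exactly 1 of the other list, 20.7% were wider in bRG, and the median ratio of bRG to aRG-N width was 0.900 (quartiles 0.785 and 0.983). The summits lay a median of 46 bp apart and over 500 bp apart in 337 pairs (3.06%). Of 2493 such H3K27me3 pairs, 232 (9.31%) were wider in bRG, the median width was 3957 bp in aRG-N and 2217 bp in bRG, and the median ratio was 0.623 (quartiles 0.411 and 0.825). The bRG peak had under 50% of the aRG-N width in 847 of these pairs (34.0%) and over double in 31. Across pairs, Spearman's rho of the widths was 0.922 for H3K4me3 and 0.739 for H3K27me3. These are descriptions over peaks of the same libraries, which are not replicates.

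**Figure D2:**
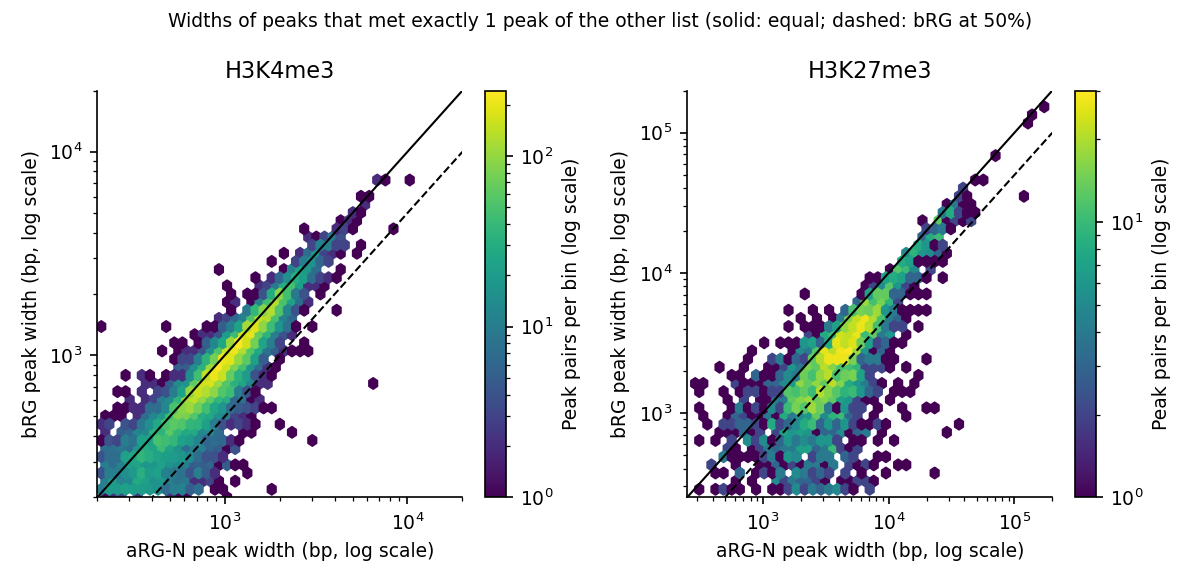
Width of the aRG-N peak (x axis, bp, log scale) against that of the bRG peak it met (y axis, bp, log scale) for 11008 H3K4me3 pairs (left) and 2493 H3K27me3 pairs (right); colour gives the number of pairs per bin on a log scale, the solid line equal widths and the dashed line a bRG width of 50%. Below the dashed line lay 322 H3K4me3 pairs (2.93%) and 847 H3K27me3 pairs (34.0%).

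Long H3K27me3 domains were mostly shared and covered in part. Among the 468 aRG-N domains of at least 10 kb, 22 were absent in bRG, 112 more overlapped bRG peaks over less than 50% of their length, and 158 were covered over more than 80%. The median share covered was 69.9% (quartiles 44.1 and 83.6%), and 148 of the domains met at least 2 bRG peaks. In contrast 234 of the 236 bRG domains of at least 10 kb were covered over more than 80% by aRG-N peaks.

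Some of the shared long domains met only a short bRG peak. The examples that follow were chosen after their values were seen. Unlisted bRG calls were not counted within these domains, so the uncovered part rests on what was listed. A domain of 37.6 kb at chr19:44739960-44777537 met a single bRG peak of 0.831 kb, chr19:44765519-44766349, which covered 2.21% of it. A domain of 23.7 kb at chr11:34027495-34051202 met a bRG peak of 0.367 kb (1.55%). One of 30.7 kb at chr13:99329794-99360517 met a bRG peak of 0.714 kb (2.32%). None of these 3 carried H3K4me3 in any list, and the first overlapped H3K27me3 peaks in all 5 cell types. At chr2:165057141-165080468, 23.3 kb long with H3K4me3 in all 5 lists, 2 bRG peaks covered 13.7%.

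The H3K4me3 sites present in aRG-N and absent in bRG were led by chr13:83871113-83874089, with a fold enrichment of 22.5 and a width of 2977 bp. It was also marked in NEC and aRG-P, not in N. A listed bRG peak lay 172 bp away, and 3 unlisted bRG calls fell between the flanking listed ones, so its absence in bRG rests on what was listed. Of the 10 strongest with no bRG peak within 5000 bp, the first, chr5:146041245-146042273 (fold enrichment 13.3), was marked in all the progenitors but bRG and not in N, with 1 unlisted bRG call between the flanking peaks. The second, chr4:43512011-43512607 (fold enrichment 10.8), was marked in every cell type but bRG, with no unlisted bRG call beside it. The others ranged from 8.25 to 10.5. The sites chr9:110856005-110856924 (fold enrichment 10.5) and chr15:79722121-79722998 (8.56) were listed with H3K4me3 in NEC and aRG-N alone and overlapped an H3K27me3 peak in N. Each had 2 unlisted bRG calls between the flanking peaks.

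The strong bRG sites missing in aRG-N were mostly marked in neurons too. Of the 10 strongest with no aRG-N peak within 5000 bp, 9 overlapped an N peak, against 5 of the 10 aRG-N sites above, the exception being chr8:86528218-86528919 (fold enrichment 7.50), the second strongest, with 1 unlisted aRG-N call between the flanking listed peaks. The strongest was chr4:123363292-123364469 (fold enrichment 10.8), and the third was chr1:92100580-92101645 (6.73), listed in every cell type but aRG-N. Each of these had 2 unlisted aRG-N calls between the flanking peaks, so its absence in aRG-N rests on what was listed. The site chr9:58048103-58049540 (fold enrichment 6.47) had H3K4me3 in aRG-P, bRG and N and H3K27me3 in every cell type but N, and no unlisted aRG-N call lay beside it. The remaining values ran down to 5.70. The sites chr10:10801572-10801897 and chr15:39688596-39688855, both at 5.70, overlapped H3K27me3 peaks in all 5 cell types.

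Among the 10 longest aRG-N H3K27me3 domains with no bRG peak within 5000 bp, 9 carried no H3K4me3 in any list. They measured 14.0 to 29.7 kb. The domains chr4:44517356-44547067 (29.7 kb), chr4:130414326-130436199 (21.9 kb) and chr11:84513829-84528719 (14.9 kb) were found in aRG-N alone, and each had at least 5 unlisted bRG calls between the flanking peaks. By contrast chr2:43631684-43650357 (18.7 kb), also found in aRG-P and N, had no unlisted bRG call beside it, and the nearest listed one was 4850345 bp away. The exception with H3K4me3 was chr11:98172044-98192896 (20.9 kb), where all 4 E14.5 lists had H3K4me3 and NEC, aRG-P and aRG-N had H3K27me3. A like pattern of both marks was seen at chr2:61641226-61652953 (11.7 kb). Neither place had an unlisted bRG call.

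The bRG H3K27me3 domains missing in aRG-N were shorter, and 7 of the 10 longest with no aRG-N peak within 5000 bp overlapped H3K4me3 in at least 1 list. They measured 2.16 to 9.04 kb, and all but 1 of them, chr8:125935562-125938440 (2.88 kb), also overlapped an N H3K27me3 peak. The domain chr16:30061010-30066593 (5.58 kb) had H3K27me3 in bRG and N only and H3K4me3 in all 5 cell types. The domain chr10:119910916-119915583 (4.67 kb) had it in aRG-P, bRG and N, again with H3K4me3 in all 5. Unlisted aRG-N calls lay beside both, and none lay beside chr3:34540762-34543074 (2.31 kb), found in NEC, bRG and N with no H3K4me3.

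Among the further lists, N and, for H3K4me3, NEC differed most between the directions of change. These lists played no part in choosing the unshared peaks. Of the 1400 aRG-N H3K4me3 peaks absent in bRG, 87.3% (interval 85.4 to 89.0%) overlapped a NEC peak, 31.9% an aRG-P peak and 31.9% an N peak. Of the 373 bRG peaks absent in aRG-N, 66.0% (60.9 to 70.8%) overlapped NEC, 39.1% aRG-P and 73.7% (68.9 to 78.1%) N. Shared peaks of either list overlapped each further list in 93.4 to 98.6% of cases. Weak peaks are listed less often, so the same was read in the weakest quintile of fold enrichment of each list. There 72.5% of unshared and 74.7% of shared bRG peaks overlapped N, whereas 30.9% of unshared and 79.7% of shared aRG-N peaks did.

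For H3K27me3, 34.0% of the aRG-N peaks absent in bRG overlapped NEC, 26.8% aRG-P and 36.3% N. For the bRG peaks absent in aRG-N the shares were 30.2%, 21.0% and 56.2% (interval 50.5 to 61.7%). Shared peaks overlapped these lists in 81.1 to 96.9% of cases. The N H3K27me3 list was made from reads extended by 200 bp and the aRG-P list with a set of samples left out, per the peak names in the files, and their part in these shares was not tested. Of the aRG-N peaks absent in bRG, 1473 (43.4%) overlapped no peak in NEC, aRG-P or N, against 106 (33.7%) of the bRG peaks absent in aRG-N. The higher share of unshared bRG peaks in N did not hold at all scores. In the weakest quintile of each list 48.5% of unshared bRG and 18.9% of unshared aRG-N peaks overlapped N. In the quintile below the strongest the shares were 64.3% (9 of 14) and 64.8% (190 of 293), and in the strongest 33.3% (7 of 21) and 71.0% (22 of 31).

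**Figure D3:**
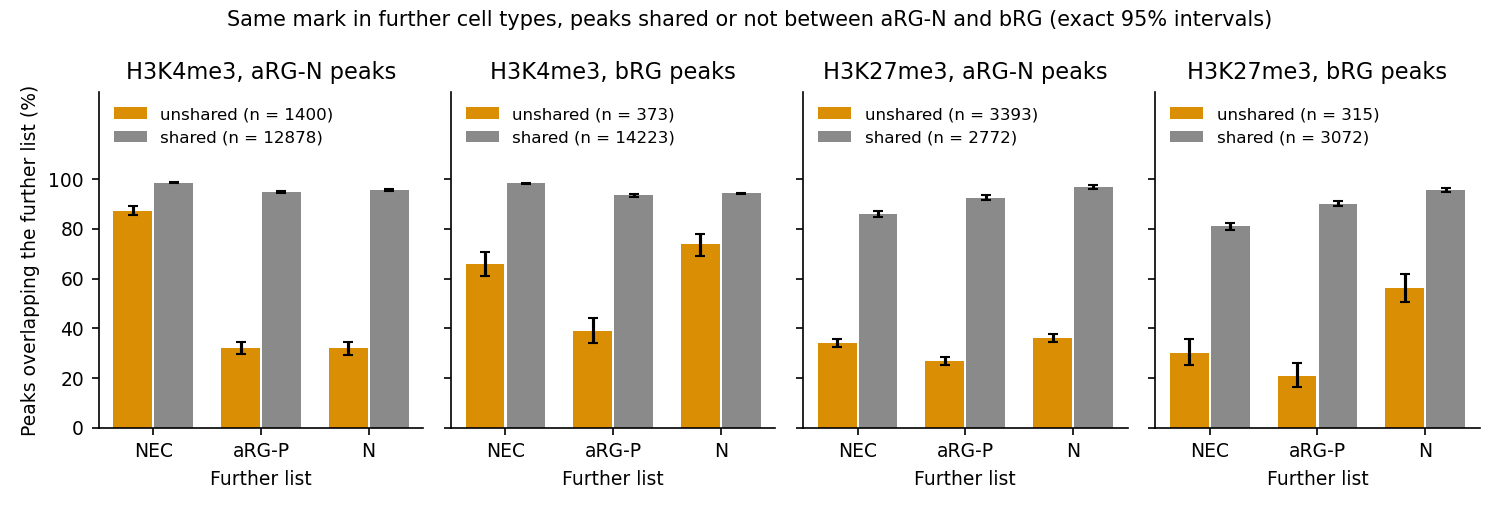
Share of peaks (y axis, percent) that overlapped a peak of the same mark in NEC, aRG-P or N (x axis), for peaks unshared (orange) or shared (grey) between aRG-N and bRG; bars are shares with exact 95% intervals. Over all strengths, 73.7% of unshared bRG and 31.9% of unshared aRG-N peaks met N for H3K4me3, and 56.2% and 36.3% for H3K27me3, an order reversed in the strongest H3K27me3 quintile.

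Some of the unshared sites set both apical lists apart from bRG and N together. H3K4me3 was present in both apical lists and absent in bRG and N at 220 aRG-N peaks (15.7% of the 1400, interval 13.8 to 17.7%), 207 of which were marked in NEC. H3K4me3 was present in bRG and N and absent in both apical lists at 143 bRG peaks (38.3% of the 373, interval 33.4 to 43.5%), 86 of them marked in NEC. For H3K27me3 the counts were 307 (9.05% of the 3393) and 119 (37.8% of the 315). The strongest H3K4me3 site of the second kind was chr4:123363292-123364469 (fold enrichment 10.8 in bRG), described above. The next were chr15:27955871-27956145 (8.53) and chr3:36471128-36471554 (5.96), both in NEC, bRG and N. Both values were below the median of shared bRG peaks, 8.82. A listed aRG-N peak lay 127 and 143 bp away, and 1 unlisted aRG-N call lay beside the site on chromosome 15. Among sites of the first kind, chr1:34734838-34735471 (7.93 in aRG-N) lay in H3K27me3 of all 5 cell types, with the nearest bRG H3K4me3 peak 72092 bp away. Among aRG-N peaks the opposite grouping, with N and without aRG-P, was about as common for H3K4me3 and more common for H3K27me3. It held at 194 H3K4me3 peaks with NEC and 25 without, against 207 and 13 of the first kind. For H3K27me3 these were 292 and 335, against 113 and 194. Unshared bRG peaks with aRG-P and without N numbered 6 with NEC and 8 without for H3K4me3. For H3K27me3 they numbered 3 and 5.

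The pairs with aRG-P are given side by side, without a test, since they share lists with this one. Between aRG-P and bRG, 1058 aRG-P H3K4me3 peaks (6.84%) and 1172 bRG peaks (8.03%) were unshared. Between aRG-P and aRG-N these were 542 (3.50%) and 1618 (11.3%). Unshared H3K27me3 peaks numbered 1931 of aRG-P (41.7%) and 554 of bRG (16.4%) in the first pair, and 830 of aRG-P (17.9%) and 2692 of aRG-N (43.7%) in the other. For both marks a smaller share of the bRG list was unshared with aRG-N than with aRG-P. The other direction had the reverse order. No bRG peak was met by 9.81% of aRG-N and 6.84% of aRG-P H3K4me3 peaks, and by 55.0% and 41.7% of H3K27me3 peaks. The aRG-N lists also covered more sequence than those of aRG-P, 15.2 against 11.6 Mb for H3K4me3 and 24.6 against 16.3 Mb for H3K27me3.

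For the joint view, peaks of the 4 lists that shared at least 1 bp were joined into 18523 regions. Each region was described by the marks it held in each cell type. Most, 13365 (72.2%, interval 71.5 to 72.8%), had the same marks in both. H3K27me3 alone differed in 3614 (19.5%) and H3K4me3 alone in 1469 (7.93%). This order depended on list length: at equal lengths within each mark, H3K27me3 alone differed in 1440 of 16284 regions and H3K4me3 alone in 1566. Both marks differed in 75 regions (0.405%, interval 0.319 to 0.507%). A region with both marks in a cell type held a peak of each mark anywhere in it. These peaks need not overlap, since peaks of the other cell type can link them. The cells that carry one mark also need not be those that carry the other.

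Regions with both marks in aRG-N often held a single mark in bRG. Of 1882 such regions in aRG-N, 1131 (60.1%) also had both in bRG, 452 (24.0%) had H3K4me3 only, 249 (13.2%) H3K27me3 only and 50 (2.66%) neither. In bRG 1261 regions had both marks, of which 99 had H3K4me3 only and 31 had H3K27me3 only in aRG-N, and none had neither. With list lengths made equal within each mark, 236 regions with both marks in aRG-N had H3K4me3 only in bRG and 194 went the other way, a smaller gap than in the full lists. Under the same condition 259 had H3K27me3 only in bRG and 21 the reverse, a gap no smaller than before. Regions with H3K4me3 only in both cell types numbered 10889, and those with H3K27me3 only in both 1345. A further 2869 had H3K27me3 in aRG-N alone and no H3K4me3 in either cell type, and 194 had H3K27me3 in bRG alone without H3K4me3. At equal list lengths these counts were 644 and 366.

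**Figure D4:**
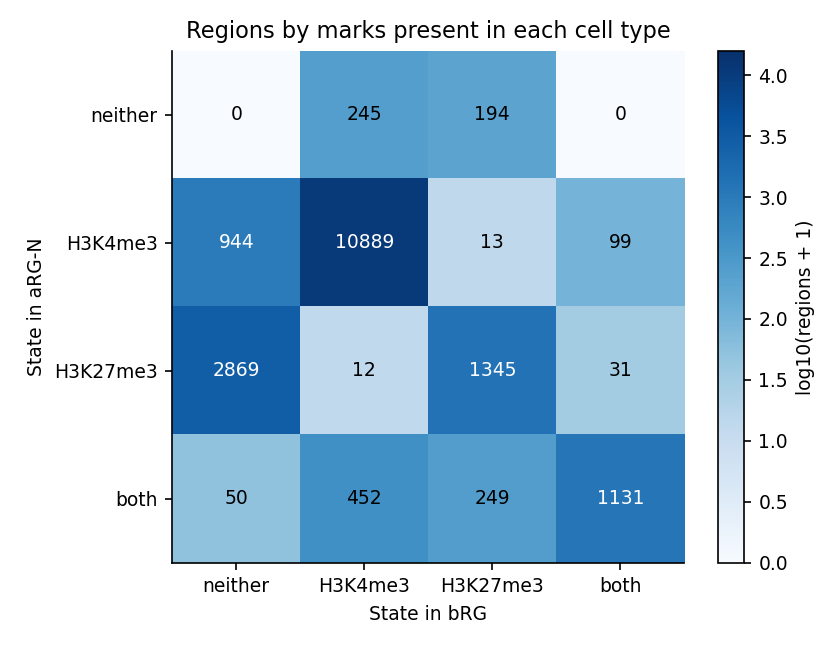
Number of joined regions by the marks present in aRG-N (rows) and in bRG (columns), with colour as log10 of the count plus 1. The diagonal holds 13365 regions, and the 3 cells in which both marks differed and that were not empty hold 12, 13 and 50.

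The 452 regions with H3K4me3 in both cell types that lacked H3K27me3 in bRG had H3K27me3 in NEC in 87.6% of cases, in N in 56.2% and in aRG-P in 44.9%. The 249 with H3K27me3 in both cell types that lacked H3K4me3 in bRG had H3K4me3 in NEC in 99.2%, in aRG-P in 47.8% and in N in 38.6%. Where both cell types had both marks, the shares with H3K4me3 were 99.6% in NEC, 92.4% in aRG-P and 89.2% in N. The 99 regions that had H3K4me3 in both cell types and H3K27me3 in bRG alone had H3K27me3 in N in 61.6%, in NEC in 50.5% and in aRG-P in 20.2%.

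Read from single peaks, H3K27me3 lay over unshared H3K4me3 peaks more often than over shared ones, a gap smaller or absent in the weakest quintile. Of the 1400 aRG-N H3K4me3 peaks absent in bRG, 330 (23.6%) lay in H3K27me3 of both cell types, 91 in that of aRG-N only and 35 in that of bRG only. In all, 30.1% overlapped H3K27me3 in aRG-N, against 12.7% of shared peaks. In the weakest quintile of the list the shares were 30.6% and 32.1%. For overlap with H3K27me3 in bRG they were 26.2% and 21.7% in that quintile. In the weakest quintile of bRG H3K4me3 peaks, 32.5% of unshared and 26.0% of shared peaks overlapped H3K27me3 in aRG-N. For H3K27me3 in bRG these shares were 20.7% and 19.4%. Of the 373 bRG H3K4me3 peaks absent in aRG-N, 76 (20.4%) lay in H3K27me3 of both cell types, 48 (12.9%) in that of aRG-N only and 4 in that of bRG only. Of the 3393 aRG-N H3K27me3 peaks absent in bRG, 418 (12.3%) overlapped H3K4me3 in both cell types and 2869 (84.6%) in neither. Of the 315 bRG H3K27me3 peaks absent in aRG-N, 104 (33.0%) overlapped H3K4me3 in both, 17 in aRG-N only and none in bRG only.

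One mark in place of the other was rare. H3K27me3 in aRG-N and H3K4me3 in bRG was found in 12 regions and the reverse in 13. The strongest H3K4me3 peak in them had a fold enrichment of at most 5.44 in the 12 and at most 7.93 in the 13, below the median of shared peaks in each list. At equal list lengths the counts were 7 and 46, and over H3K4me3 peaks alone, in place of joined regions, they were 48 and 35. Which of the kinds was more frequent thus depended on the setting.

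Of the 12 regions with H3K27me3 in aRG-N and H3K4me3 in bRG, the strongest was chr11:56824395-56826857. There an H3K27me3 peak of 2463 bp filled the region in aRG-N, and bRG had an H3K4me3 peak (fold enrichment 5.44) over 658 bp. NEC, aRG-P and N also had H3K4me3, and H3K27me3 was otherwise present in NEC alone. The region chr5:118290105-118296259 (fold enrichment 4.93), 6155 bp long, had H3K27me3 in every cell type but bRG and H3K4me3 in every one but aRG-N. In both regions no peak of the missing mark lay within 5000 bp and no unlisted call lay beside them, which held for these 2 of the 12. At chr8:91046349-91046941 (fold enrichment 4.96), a peak of a missing mark lay 43 bp away. In 7 of the 12, N had the same marks as bRG, and in 3 the same as aRG-N.

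The 13 regions with H3K4me3 in aRG-N and H3K27me3 in bRG were alike in the further lists. All 13 had H3K4me3 in NEC and none had it in aRG-P, 12 had H3K27me3 in N, and 10 had the same marks in N as in bRG. The strongest was chr11:97276542-97277720, with H3K4me3 over 519 bp in aRG-N (fold enrichment 7.93) and H3K27me3 over all its 1179 bp in bRG. The same fold enrichment of 7.93 was found at chr18:20216891-20217950. At both an unlisted call of a missing mark lay between the flanking peaks. At chr2:110202397-110203527 (fold enrichment 5.41) and chr1:152839734-152840996 (4.67) none did, and the nearest peak of a missing mark was 159079 and 318232 bp away. Of the 13, 4 met both conditions.

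The 50 regions with both marks in aRG-N and neither in bRG all had H3K4me3 in NEC, and 42 had both marks there. In N, 41 had H3K27me3 and 20 had H3K4me3. The strongest, chr17:27790510-27794570, had an H3K27me3 peak of 4061 bp in aRG-N with an H3K4me3 peak of 277 bp in it (fold enrichment 8.88). It also carried both marks in NEC and aRG-P, and H3K4me3 alone in N. The next were chr1:132774135-132775264 and chr10:115737723-115739437, both with a fold enrichment of 6.98 and with both marks in N. In these 3 no bRG peak of either mark lay within 5000 bp and no unlisted call lay beside them, as in 23 of the 50. No region had both marks in bRG and neither in aRG-N, while 3 did at equal list lengths and 4 over H3K4me3 peaks alone. The 50 became 23 and 91 under these settings.

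**Figure D5:**
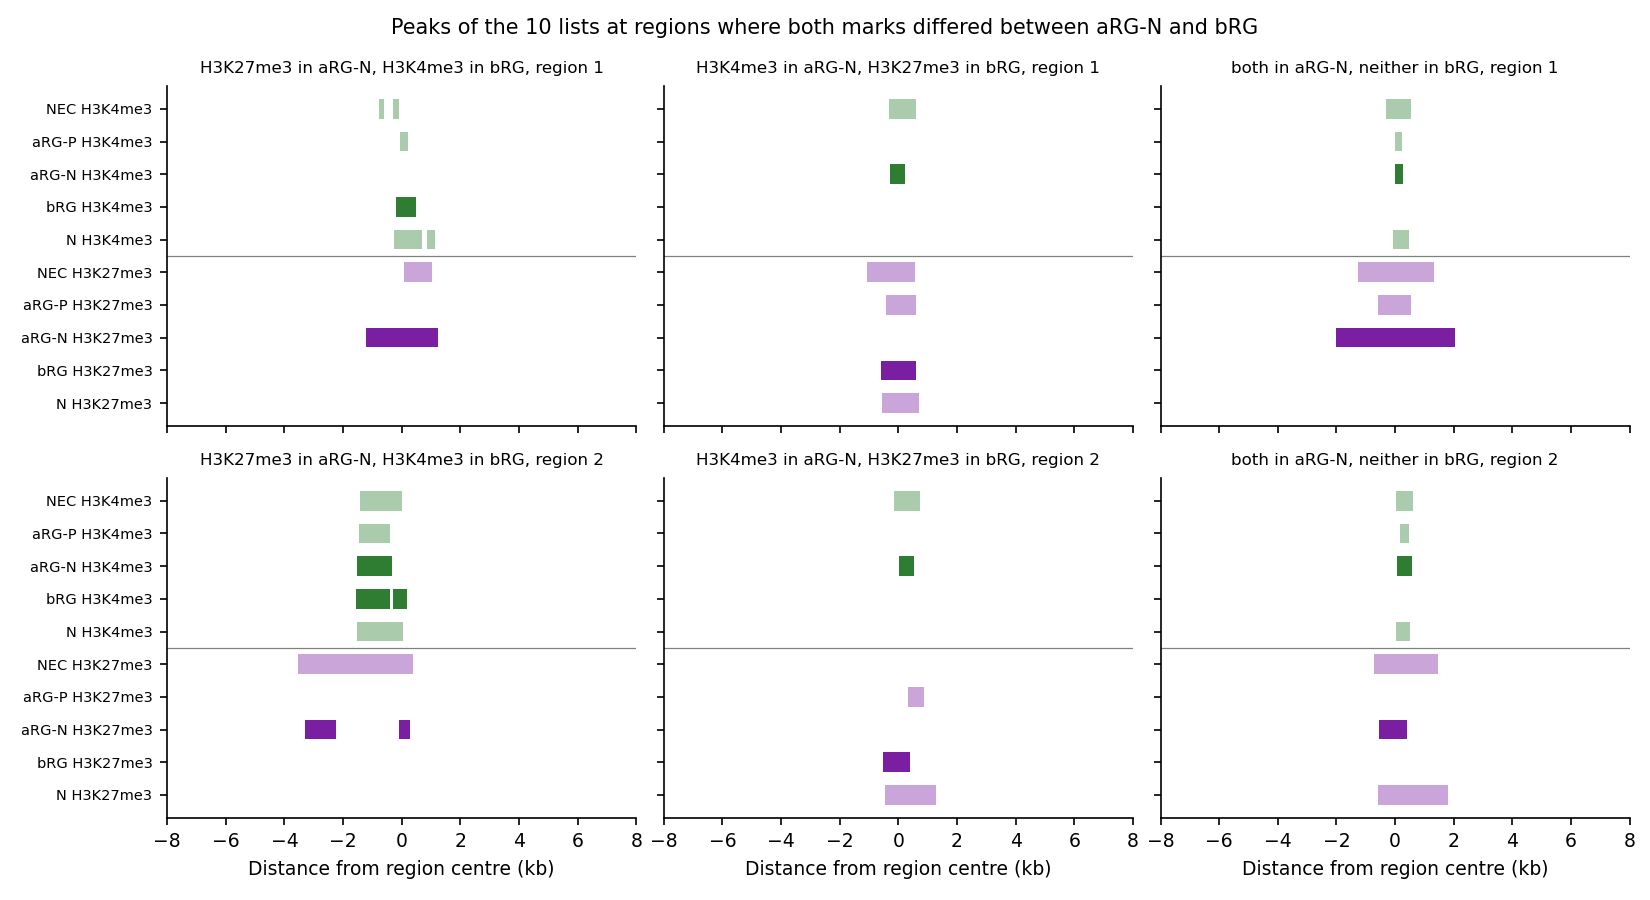
Listed peaks of the 5 cell types (y axis, H3K4me3 in green, H3K27me3 in purple, aRG-N and bRG in full colour) by distance from the region's centre in kb (x axis), for the 2 regions with the highest H3K4me3 fold enrichment in each kind of joint difference. In the upper left region H3K27me3 filled 2463 bp in aRG-N where bRG had H3K4me3 over 658 bp; in the lower left one aRG-N H3K4me3 ended 43 bp short of the region.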

How the data were processed

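ChIP-seq peak lists of aRG-N and bRG, with those of NEC, aRG-P and N beside them, were analysed as deposited. Reads were processed with Bowtie 1.0.0, MACS2 and bedtools in build mm9, per the submitters' processing notes. Each list came from combined samples, with duplicates removed in the lists of aRG-N and bRG, and carries "all transcripts" in its track name, per the file headers and peak names. In the H3K4me3 lists the authors' caller gave a fold enrichment (a ratio over background), −log10 p, −log10 q and a summit, and the first value of the deposited H3K27me3 lists is a score. The authors' signal behind each list and its depth were not used here.

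Overlaps were computed in Python 3.11.15 (pandas 2.3.3, numpy 2.4.6; intervals from scipy 1.17.1), without any test between cell types, and were tested on simulated lists. Alternatives were 50% coverage, no peak within 5000 bp, equal list lengths, the stronger 50% of a list, widths of at least 1000 bp, a −log10 q of at least 5, a common lowest score of 15.8, gaps up to 3000 bp joined, and states of H3K4me3 peaks alone. All chromosomes and absence of unlisted calls were added after seeing the data.

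Named regions are, per mark and direction, from the 10 strongest (H3K4me3) or longest (H3K27me3) peaks with no peak of the other list within 5000 bp. Also named are the 5 whose state in aRG-P equalled aRG-N and in N equalled bRG, and the 5 strongest regions of each joint difference. Long domains covered in part were picked after their values were seen, and so was the choice of which regions under the rule to print. The comparison and its rules were chosen with earlier results of these data known.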

Additional observations from a re-analysis of the deposited data

How the results depend on the processing

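Of 40 alternative values of the 5 counts (unshared peaks of the 4 lists, and regions in which both marks differed), 24 stayed within 1.5 times the reported count and 16 did not. With no peak within 5000 bp, unshared H3K4me3 peaks numbered 653 in aRG-N and 95 in bRG. In the stronger 50% of each list they numbered 2 and 2, and the unshared H3K27me3 peaks 695 and 45. Among peaks of at least 1000 bp the counts were 15 and 5 for H3K4me3 and 1982 and 109 for H3K27me3. With a −log10 q of at least 5, 248 bRG H3K4me3 peaks were unshared. At equal list lengths 914 aRG-N and 615 bRG H3K27me3 peaks were. Where no unlisted call lay between the flanking peaks, 185 bRG H3K27me3 peaks were absent in aRG-N and 41 regions differed in both marks. Counted over H3K4me3 peaks alone, in place of joined regions, 178 differed in both. Some of these settings test fewer peaks by construction; for the others the cause was not tested. In the H3K27me3 lists more aRG-N than bRG peaks were unshared under each alternative tried. The aRG-N list was the longer in all of them but equal lengths. Where it was longer, the direction of these counts cannot be told apart from list length. At equal lengths the direction was the same, with 914 aRG-N and 615 bRG peaks unshared. Counts from lists of equal length differ only where a peak meets several peaks of the other list, and the cause of this was not tested. No paired analysis was possible because each list was called on combined samples. With the depth unknown, a missing peak may be one too weak to be listed.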

Other observations

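Unshared peaks were also counted in windows of 1 Mb. Picking windows by this count favours those with many peaks, and whether unshared peaks cluster was not tested. In the window chr4:150000001-151000000 all 18 aRG-N H3K27me3 peaks lacked a bRG peak. In chr12:118000001-119000000 it was 18 of 22, and in chr1:91000001-92000000 it was 17 of 25, against 55.0% over the whole list. In the other direction 7 of 12 bRG H3K27me3 peaks in chr8:117000001-118000000 and 6 of 10 in chr8:125000001-126000000 had no aRG-N peak, against 9.30% overall. For bRG H3K4me3 the highest count in a window of 1 Mb was 5, reached with 10 peaks in chr12:30000001-31000000. The windows were picked for these counts, so they are descriptions without a test.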
